A study of Mus musculus with 4 samples.

Results

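The genes described here are 92 nuclear genes whose symbols name a subunit, or a close paralog of a subunit, of the 5 complexes of oxidative phosphorylation, together with the complex I assembly factors named Ndufaf. They were found among the 24625 genes of the deposited gene models by symbol alone (Nduf, Sdha to Sdhd, Uqcr, Cox4 to Cox8 and Atp5), a rule that uses no measured value, although the set itself was taken up with earlier results of these data known. Complex I had 36 genes, complex II 4, complex III 8, complex IV 20 and complex V 15. The other members were 7 Ndufaf assembly factors and 2 genes named Atp5s and Atp5sl, which are kept apart because their current symbols, Dmac2l and Dmac2, do not name ATP synthase subunits. Ndufa4 and its paralog Ndufa4l2 were placed with complex IV, where the Ndufa4 protein resides. The subunits encoded by mitochondrial DNA have no entry in the gene models and were not analysed here.

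The RNA came from peritoneal macrophages of C57BL/6 mice. One group had a control diet, the other a high-fat diet with 60% of its energy as fat, for 12 weeks. Both groups received 3% thioglycollate in the peritoneal cavity, an irritant that recruits monocyte-derived macrophages, and cells were taken 4 days later, so neither group represents resting peritoneal macrophages. Each diet had 2 libraries of ribosomal-RNA-depleted total RNA. The labels state neither the age of the mice nor whether a library is 1 mouse or a pool, so p-values measure only the spread between these samples, which may be technical.

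Complexes I to IV form the respiratory chain of the inner mitochondrial membrane. Complexes I and II feed electrons from NADH and succinate to ubiquinone, complex III passes them to cytochrome c, and complex IV passes them to oxygen. Complexes I, III and IV move protons across the membrane, and complex V, the ATP synthase, uses their return to make ATP. In macrophages the balance between this pathway and glycolysis differs between activation states. The core subunits of complex I carry its redox centres and pump, and accessory subunits surround them. In complexes IV and V some subunits exist as isoforms from separate genes, several of which are known from muscle, testis or lung.

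Levels are given as CPM, that is, counts relative to a library's TMM-adjusted total on genes. The libraries held between 39347347 and 45658551 counts on genes. Across genes, log2 levels correlated at r = 0.993 between the control replicates, at 0.990 between the high-fat replicates, and at 0.984 to 0.987 across diets. The 10 macrophage markers summed to 27431 and 26427 CPM with control diet and to 20417 and 24960 CPM with high-fat diet. Lyz2 alone gave 22930 and 22094 against 16399 and 20994.5 CPM of these sums. Of the 10 markers, 9 had a negative log2 fold change and 1 was called lower, while Cd68 was at 0.14. Mesothelial and fibroblast markers summed to 21.1 and 28.4 CPM with control diet and to 175 and 86.8 CPM with high-fat diet, with 1 of 12 tested genes called higher. Neutrophil markers summed to 87.2 and 91.5 against 57.7 and 54.4 CPM, with 2 of 7 tested genes called lower and Elane at 0. Camp and Ngp had at most 0.0258 CPM and S100a9 at most 0.799 CPM in any library. B cell markers summed to 64.1 and 61.1 against 65.6 and 166 CPM (1 of 9 called higher), dendritic cell markers to 16.1 and 16.7 against 9.33 and 14.9 CPM (1 of 7 lower), and eosinophil markers to 9.44 and 18 against 3.66 and 3.48 CPM (1 of 3 lower). The eosinophil genes Epx, Prg2 and Ear1 had at most 0.0646 CPM, so that sum rests on Siglecf, Ccr3 and Alox15. The part of all these cell types in the results below was not tested. In bulk RNA, fewer cells of a type and less RNA per cell cannot be told apart.

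The promoters of 4 members are shown, because these genes carry the widest diet difference in complex I (Ndufa11) and the c-subunit isoforms whose values diverged (Atp5g1, Atp5g2, Atp5g3). Each is the 250 bases before the RefSeq start in GRCm38.p6, 5′ to 3′ on the gene's own strand: Ndufa11 is chr17:56717512-56717761 on the plus strand, Atp5g1 chr11:96075632-96075881, Atp5g2 chr15:102671048-102671297 and Atp5g3 chr2:73911327-73911576, all 3 on the minus strand. Capitals mark the word GCATGCGC or its reverse complement GCGCATGC, part of the palindromic motif of nuclear respiratory factor 1 (NRF1), a transcription factor known for activating respiratory chain genes.
Ndufa11: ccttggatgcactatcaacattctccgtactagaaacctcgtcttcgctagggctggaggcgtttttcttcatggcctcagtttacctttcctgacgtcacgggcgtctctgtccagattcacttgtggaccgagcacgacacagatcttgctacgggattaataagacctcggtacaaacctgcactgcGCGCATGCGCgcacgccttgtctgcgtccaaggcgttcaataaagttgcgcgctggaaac
Atp5g1: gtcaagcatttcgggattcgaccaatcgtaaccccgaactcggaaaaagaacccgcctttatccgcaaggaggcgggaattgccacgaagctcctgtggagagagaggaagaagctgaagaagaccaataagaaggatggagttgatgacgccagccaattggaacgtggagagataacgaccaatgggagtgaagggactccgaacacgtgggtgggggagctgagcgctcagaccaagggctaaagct
Atp5g2: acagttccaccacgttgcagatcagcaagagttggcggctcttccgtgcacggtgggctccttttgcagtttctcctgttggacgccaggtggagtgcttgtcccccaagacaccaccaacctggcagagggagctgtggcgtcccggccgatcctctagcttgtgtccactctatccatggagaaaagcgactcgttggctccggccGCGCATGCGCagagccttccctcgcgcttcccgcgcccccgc
Atp5g3: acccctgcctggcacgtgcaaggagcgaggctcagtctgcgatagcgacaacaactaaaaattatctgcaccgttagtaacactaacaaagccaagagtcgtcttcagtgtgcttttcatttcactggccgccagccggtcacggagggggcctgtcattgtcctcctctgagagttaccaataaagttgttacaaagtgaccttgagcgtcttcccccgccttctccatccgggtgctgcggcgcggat
In the Ndufa11 and Atp5g2 promoters the word stands on both strands, overlapping itself in 1 stretch, and it is not in the windows of Atp5g1 and Atp5g3.

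The filter on low counts kept 85 of the 92 members: 35 of complex I, all of complexes II, III and V, 14 of complex IV, all 7 assembly factors and both genes kept apart. Of the 7 members not kept, 5 had no count in any library (Ndufs5, Cox4i2, Cox7b2, Cox8b and Cox8c). The other 2 had few: Cox6b2 had 2 and 3 counts with control diet and 4 and 3 with high-fat diet, and Ndufa4l2 had 2 counts in high-fat library 1 and none elsewhere. A count of 0 allows up to 3 counts, which correspond to 0.0646 to 0.0773 CPM in these libraries; this covers counting error only. Ndufs5, singled out after its values were seen, encodes an accessory subunit of complex I, and its model is shared with another: 484 of its 509 exon bases (95.1%, mm9 chr4:123389953-123395429, minus strand) lie within the same-strand model BC002163, which also had 0 counts in all 4 libraries. A read that matches both models belongs to neither alone, so its level is not measured here.

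No member passed edgeR's test of diet. The quasi-likelihood test with Benjamini-Hochberg adjustment over 12747 genes called 0 of 85 members, against 0.612% of all genes tested. The smallest adjusted p among members was 0.0814, for Ndufa13. At an unadjusted p below 0.05 there were 12 members on the lower side with high-fat diet and 2 on the higher side, where all genes gave 8.46% lower and 8.56% higher. DESeq2 called 2 members, both lower (Cox4i1 and Ndufa13), where 1.6% of all genes were called lower. Limma-voom called 0 members and 0.22% of all genes. EdgeR without a filter on low counts called 5 members, all lower (Cox4i1, Ndufa11, Ndufa13, Ndufa3 and Ndufb7), where 1.54% of all genes were lower. The median log2 fold change, high-fat over control, was -0.013 over members and -0.0054 over all genes, with 44 members below 0 and 41 above. The high-fat libraries lay wholly above the control libraries for 15 members and wholly below for 24, while 46 overlapped; over all genes 26.1% lay above and 24.9% below.

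**Figure D1:**
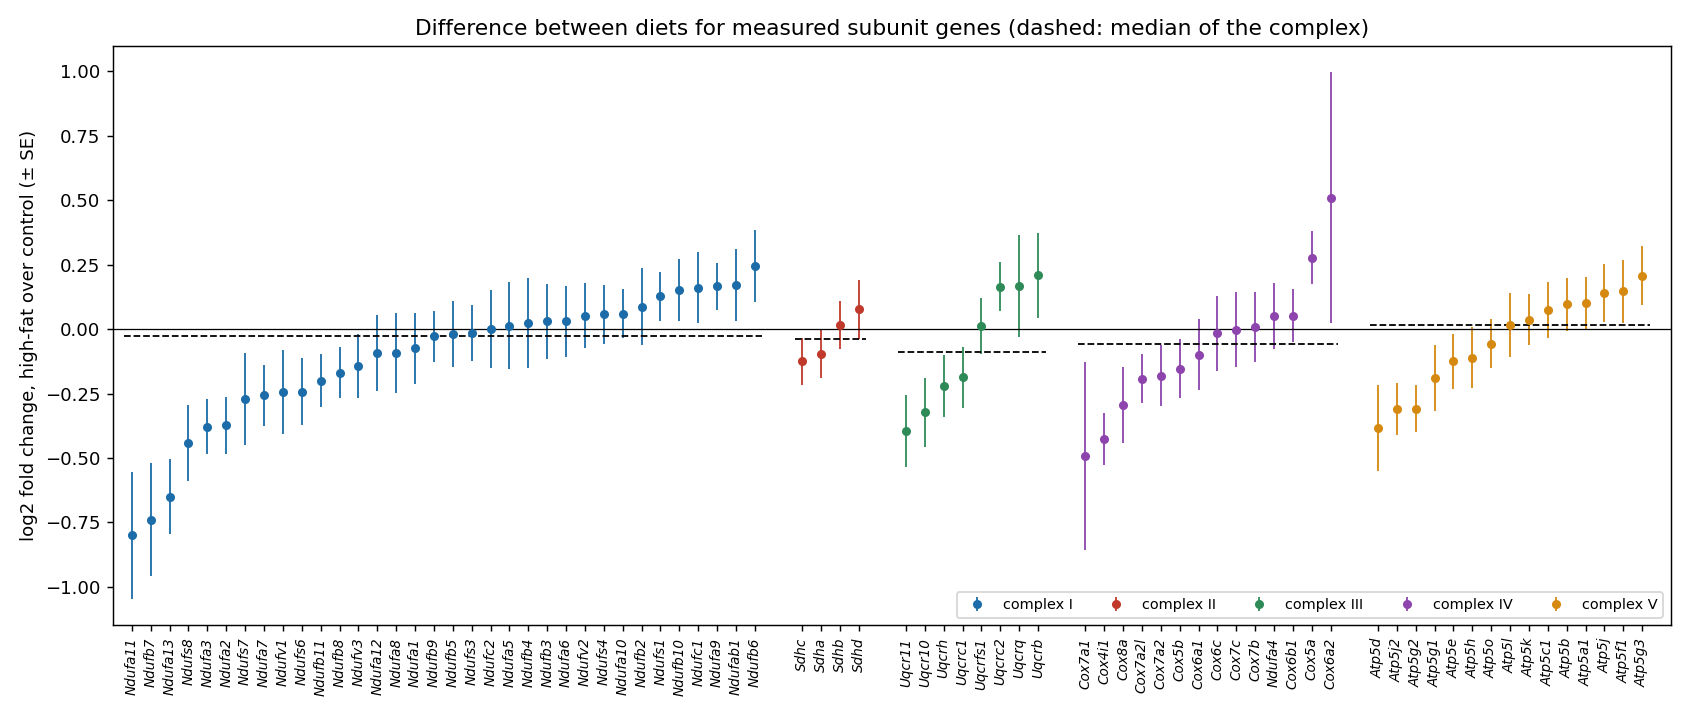
Log2 fold change (high-fat over control diet) with its standard error for kept members of the 5 complexes; each point is 1 gene, the line at 0 marks no difference and dashed lines are medians of the complexes. Members scatter on both sides of 0 in each of the 5 complexes, from -0.80 (Ndufa11) to 0.51 (Cox6a2), and none passed an adjusted p of 0.05.

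The medians by complex were close to 0: -0.028 for complex I, -0.039 for complex II, -0.087 for complex III, -0.058 for complex IV and 0.015 for complex V. The 7 Ndufaf factors had a median of 0.096. The median size of the difference was 0.24 on the log2 scale between the control libraries, 0.11 between the high-fat libraries and 0.15 between diets, while over all genes these were 0.17, 0.15 and 0.18. Differences within a diet are of single libraries and those between diets of means. Control library 2 was the higher of the control pair for 66 of 85 members (77.6%), compared with 48.7% of all genes; high-fat library 2 was the higher of its pair for 45 of 85. The members together took 0.685% and 0.792% of all CPM with control diet, and 0.730% and 0.739% with high-fat diet, so the high-fat values lay between the control values.

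**Figure D2:**
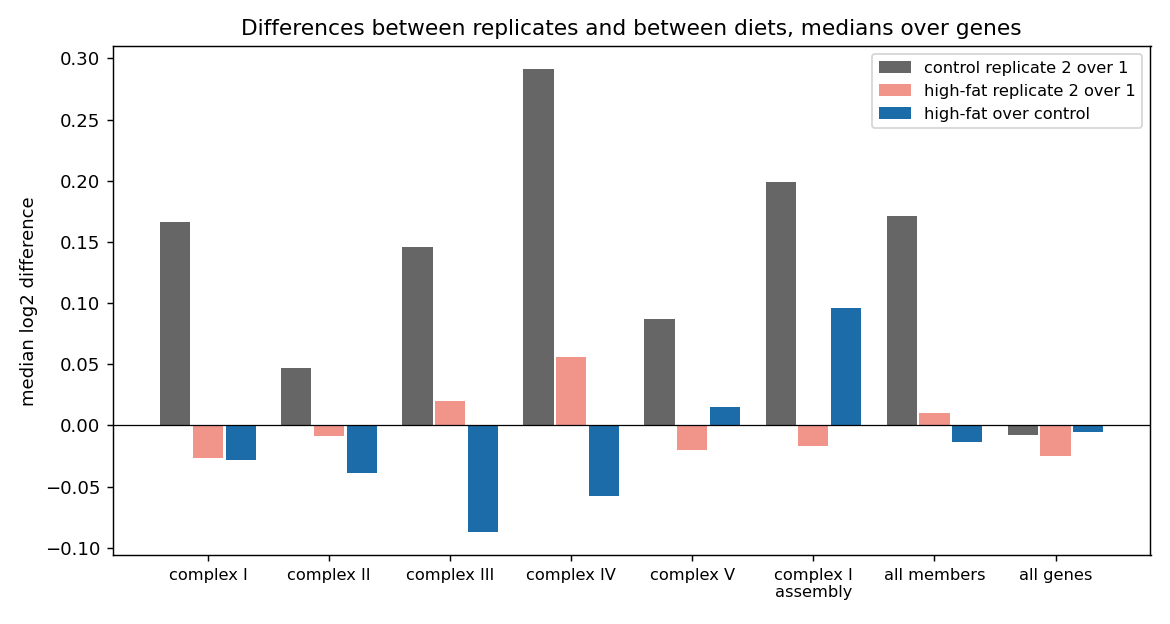
Bars give the median log2 difference over the kept genes of each complex, of all members and of all genes, for control replicate 2 over 1 (grey), high-fat replicate 2 over 1 (pink) and high-fat over control diet (blue). Over all members the control replicates differed by a median of 0.17 and the diets by -0.013; over all genes these medians were -0.0081 and -0.0054.

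Complex I takes electrons from NADH. Of its 7 nuclear core subunits 5 had a log2 fold change below 0, as had 15 of its 28 kept accessory subunits, whose median was -0.024. Ndufs1, the largest subunit and a carrier of iron-sulfur clusters, had 133 and 144 CPM with control diet and 155 and 148 CPM with high-fat diet. Its high-fat libraries were both above the control libraries, at 0.13 ± 0.10 on the log2 scale (± SE; edgeR adjusted p = 0.515; n = 2 per diet, as for all tests below). Ndufs8, another iron-sulfur subunit, had 20.3 and 19.1 against 16.1 and 12.8 CPM. Its libraries did not overlap, and its log2 fold change of -0.44 ± 0.15 had an unadjusted p of 0.0144 and an edgeR adjusted p of 0.195. Ndufv1, which binds the cofactor FMN, had 21.9 and 16.7 against 17.9 and 14.8 CPM, with overlapping libraries. Ndufs7 had 5.52 and 5.15 against 4.48 and 4.36 CPM, a log2 fold change of -0.27 ± 0.18. Ndufv2 and Ndufs3 overlapped between diets, at log2 fold changes of 0.05 ± 0.13 and -0.016 ± 0.11.

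Among accessory subunits of complex I, Ndufa11, a membrane subunit, had the lowest log2 fold change. It had 5.91 and 4.77 CPM with control diet and 3.71 and 2.40 CPM with high-fat diet, and both high-fat values lay below both control values. The log2 fold change was -0.80 ± 0.25 (unadjusted p = 0.00939, edgeR adjusted p = 0.169). Ndufb7 had 6.58 and 5.07 against 3.96 and 3.00 CPM, also without overlap, at -0.74 ± 0.22 (edgeR adjusted p = 0.159). Ndufa13, also known as GRIM-19 and located at mm9 chr8:72418081-72426457 on the minus strand, had 24.8 and 24.2 against 17.5 and 13.6 CPM. Its difference of -0.65 ± 0.14 had the smallest p of all members (unadjusted p = 0.00138). DESeq2 gave it an adjusted p of 0.00921. Its exons overlap those of Tssk6, and the sources used here do not say whether reads were assigned by strand. Ndufa3 had 50.9 and 56.4 against 43.4 and 39.1 CPM, and Ndufa2 had 31.7 and 33.0 against 23.9 and 26.1 CPM, at log2 fold changes of -0.38 ± 0.11 and -0.37 ± 0.11; neither passed after adjustment. The exons of Ndufa2 overlap those of Tmco6, as do those of Ndufs1 with Ino80dos and of Uqcrc2 with Pdzd9. If strand was not used, reads in the shared stretches match both genes and may be missing from these counts. On the other side stood Ndufb6, with 35.9 and 44.3 against 42.5 and 52.7 CPM, overlapping libraries and the highest log2 fold change of the complex, 0.25 ± 0.14. Over all genes 26.1% lay wholly higher with high-fat diet, 24.9% wholly lower and 49% overlapped. Of the 35 kept genes of complex I, 3 lay wholly higher (Ndufs1, Ndufa9 and Ndufab1), 13 wholly lower and 19 overlapped. Others wholly lower included Ndufs6, Ndufa7, Ndufb8, Ndufb11 and Ndufv3; these 5, Ndufa9 and Ndufab1 are named after their values were seen. Without high-fat library 1, edgeR called 5 members lower (Ndufa11, Ndufa13, Ndufb7, Ndufs8 and the complex IV gene Cox4i1), where 2.98% of all genes were called lower.

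Complex II oxidises succinate and is also an enzyme of the citric acid cycle. Sdha, the flavoprotein that binds succinate, had 162 and 151 against 149 and 144 CPM, and Sdhb, the iron-sulfur subunit, had 66.5 and 70.1 against 68.6 and 69.6 CPM. The membrane anchors Sdhc and Sdhd had 74.5 and 75.3 against 67.9 and 69.5 CPM, and 116 and 143 against 139 and 135 CPM. Sdha and Sdhc lay wholly lower with high-fat diet and Sdhb and Sdhd overlapped. Over all genes 24.9% lay wholly lower and 49% overlapped. The log2 fold changes ran from -0.12 to 0.08, with edgeR adjusted p of 0.506 or more.

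Complex III passes electrons from ubiquinol to cytochrome c. The small subunits Uqcr10 and Uqcr11 had 18.9 and 22.0 against 15.8 and 16.9 CPM, and 14.6 and 13.9 against 11.5 and 10.2 CPM. Neither gene's libraries overlapped. Their log2 fold changes of -0.32 ± 0.13 and -0.39 ± 0.14 had unadjusted p of 0.0377 and 0.0195 and edgeR adjusted p of 0.269 and 0.215. With a trend on transcript length and GC content removed they were -0.12 and -0.11, with edgeR unadjusted p of 0.254 and 0.315. Uqcrh, the hinge subunit, had 211 and 265 against 204 and 205 CPM, wholly lower, at -0.22 ± 0.12. Uqcrc2, a core subunit, had 147 and 159 against 171 and 172 CPM, the only member of the complex wholly higher, at 0.16 ± 0.095. Uqcrb had the highest log2 fold change, 0.21 ± 0.16, yet its 208 and 301 CPM with control diet enclosed the 291 and 297 CPM with high-fat diet. Uqcrq had 5.12 and 4.74 against 4.76 and 6.33 CPM, and overlapped. Of the 8 genes of complex III, 1 lay wholly higher, 3 wholly lower and 4 overlapped, against 26.1%, 24.9% and 49% of all genes.

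Complex IV reduces oxygen. Cox4i1, the ubiquitous form of its subunit 4, lies at mm9 chr8:123192125-123198109 on the plus strand. It had 151 and 149 CPM with control diet and 119 and 104 CPM with high-fat diet, without overlap. Its log2 fold change of -0.43 ± 0.10 had an unadjusted p of 0.00212 and an edgeR adjusted p of 0.0961; DESeq2 gave an adjusted p of 0.0180. Cox4i2, the isoform known from lung, had no counts. Cox5a, the partner of subunit 4 in early assembly, stood on the other side, with 77.2 and 82.5 against 90.5 and 103 CPM, at 0.28 ± 0.10 (unadjusted p = 0.0232, edgeR adjusted p = 0.229). Cox8a had 111 and 134 against 86.2 and 114 CPM; its libraries overlapped and edgeR gave an adjusted p of 0.356. Without high-fat library 2, its log2 fold change was -0.51 and the edgeR adjusted p 0.0257, where 1.68% of all genes were called lower.

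The isoforms of complex IV known from other tissues had low or no counts. Cox6a2, the muscle form of subunit 6a, had 12 and 8 counts with control diet and 14 and 17 with high-fat diet. Its exons overlap those of Itgad, and reads in the shared stretch cannot be assigned to either gene without strand. Muscle markers summed to 1.03 to 1.23 CPM in all libraries, with Ckm and Myh4 at 0. Cox6a1, the ubiquitous form, had 68.9 and 76.8 against 58.7 and 77.4 CPM. Cox7a1, the muscle form of subunit 7a, had 28 and 35 against 27 and 22 counts, without overlap, at a log2 fold change of -0.49 ± 0.36. Cox7a2 had 163 and 204 against 159 and 164 CPM. Cox7a2l, known for a role in joining complexes III and IV, had 254 and 267 against 231 and 225 CPM, wholly lower, at -0.19 ± 0.094 (edgeR adjusted p = 0.334). By level per kilobase of exon, Cox7a1 made up 0.362% to 0.488% of these 3 genes' sum. Cox6b1 had 178 and 204 against 202 and 194 CPM, while Cox6b2, known from testis, was 0.0228% to 0.0349% of the pair per kilobase. Cox7b had 158 and 211 against 182 and 190 CPM. Ndufa4 had 149 and 194 against 175 and 181 CPM; the libraries of both genes overlapped. Of the 14 kept genes of complex IV, 2 lay wholly higher, 3 wholly lower and 9 overlapped. These shares were 26.1%, 24.9% and 49% over all genes.

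Complex V has a catalytic F1 head, a rotating ring of c subunits and a stalk in the membrane. Atp5a1 and Atp5b, which form the head and are named here after their values were seen, were both wholly higher. Atp5a1 had 370 and 370 against 419 and 374 CPM, and Atp5b had 565 and 586 against 627 and 604 CPM, at log2 fold changes of 0.10 ± 0.10 and 0.097 ± 0.10. Atp5d, a subunit of the central stalk, had 12.3 and 10.1 against 9.39 and 7.81 CPM and lay wholly lower, at -0.38 ± 0.17 (unadjusted p = 0.0465, edgeR adjusted p = 0.287); it was -0.15 with the length and GC trend removed and -0.25 without control library 1. Atp5j2, a subunit of the membrane part, had 74.3 and 84.4 against 64.4 and 63.5 CPM, wholly lower, at -0.31 ± 0.10 (edgeR adjusted p = 0.182). Atp5l had 182 and 227 against 194 and 219 CPM, at 0.015 ± 0.12. Of the 15 genes, 3 lay wholly higher, 3 wholly lower and 9 overlapped, against 26.1%, 24.9% and 49% of all genes.

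The c subunit is made from 3 genes whose mature proteins are the same and whose targeting peptides differ. Atp5g1 had 30.1 and 25.7 against 25.9 and 23.0 CPM. Atp5g2 had 85.3 and 84.6 against 69.5 and 67.7 CPM, wholly lower, at a log2 fold change of -0.31 ± 0.09 (unadjusted p = 0.00731, edgeR adjusted p = 0.155). Atp5g3 had 102 and 106 against 107 and 132 CPM, wholly higher, at 0.21 ± 0.11 (edgeR adjusted p = 0.387). Without high-fat library 2 the log2 fold change of Atp5g3 was 0.046, and without high-fat library 1 it was 0.35. That of Atp5g2 stayed between -0.33 and -0.29 with each library left out, and was -0.11 with the length and GC trend removed (edgeR unadjusted p = 0.107). Per kilobase of exon, Atp5g3 made up 45.8% and 47.7% of the 3 genes' sum with control diet and 52.0% and 58.2% with high-fat diet. Atp5g2 made up 42.9% and 42.7% against 37.6% and 33.3%, so the order of the leading isoforms was the same in all 4 libraries and their gap was wider in both high-fat libraries. Shares of 1 sum are not independent of each other. Of the 50-base words of Atp5g2, 87.4% also occur in genes elsewhere, against 11.5% for Atp5g1 and 0% for Atp5g3. Reads of Atp5g2 could thus have been set aside as matching more than 1 place. For Atp5g3 no such shared words were found, but only annotated transcripts were compared, not the whole genome. The part of such matches in the shares and in the order of the isoforms was not tested.

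**Figure D3:**
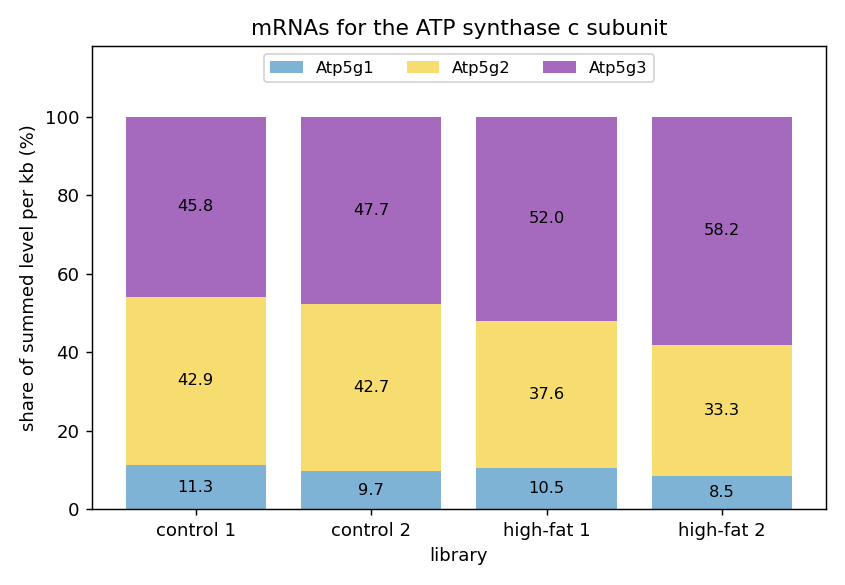
Share of each c-subunit gene (Atp5g1, Atp5g2, Atp5g3) in their summed level per kilobase of exon, in percent, as stacked bars for the 4 libraries. Atp5g3 runs from 45.8% to 47.7% with control diet and from 52.0% to 58.2% with high-fat diet.

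Levels within a complex, as CPM per kilobase of exon averaged over the 4 libraries, spanned wide ranges, although the subunits of a complex are present in fixed numbers. In complex I they ran from 1.58 (Ndufa11) to 167 (Ndufa6), a range of 106-fold. Ndufa11 has a model of 2661 exon bases, which lowers its value per kilobase. The GENCODE transcripts matched to it hold only 496 different 50-base words, so the 106-fold range depends on this long model. Complex II was the narrowest, from 52.9 (Sdha) to 104 (Sdhd). Complex III ran from 10.5 (Uqcrq) to 545 (Uqcrb), complex IV from 0.467 (Cox6a2) to 385 (Cox6b1) and complex V from 10.6 (Atp5d) to 401 (Atp5l). Cox6a2 is the muscle form of subunit 6a and had 8 to 17 counts, so the complex IV range includes an alternative isoform. The lowest genes of complexes I, III, IV and V had 58.2%, 50.2%, 52.8% and 61.1% GC. The part of GC content in levels was not tested. The median level was 199.9 in complex IV and 155 in complex V, against 51.8 in complex I, 62.5 in complex II and 52.5 in complex III. Ndufa6 had 80.2 and 105 against 88.5 and 101 CPM, with overlapping libraries. Many members have close copies: 19 of the 92 share more than 10% of their 50-base words with genes elsewhere, among them Atp5l (68.5%) and Uqcrb (43.2%), so levels of these are uncertain.

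**Figure D4:**
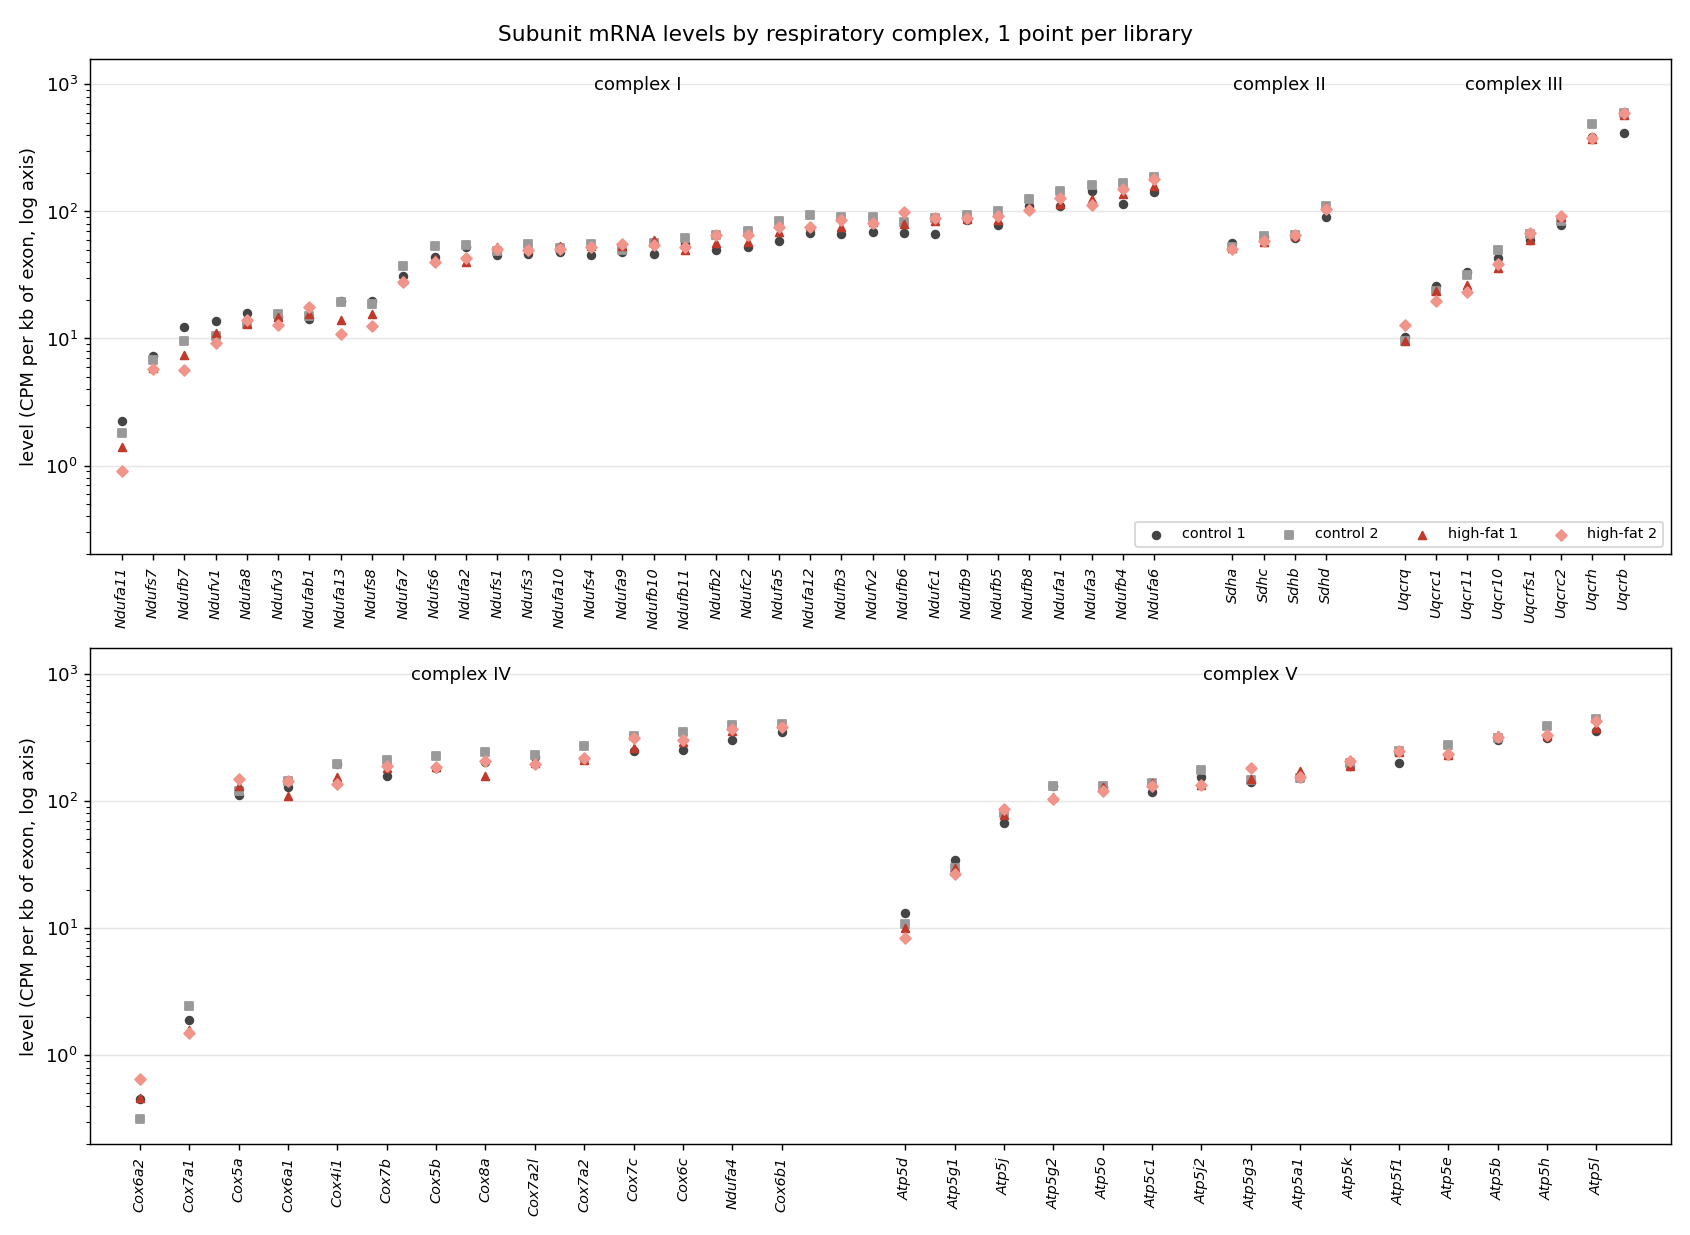
Level of kept members of the 5 complexes as CPM per kilobase of exon (log axis), 1 point per library, with members ordered by mean level. By these means complex II spans from 52.9 to 104, while complexes I and III span ranges of 106-fold and 52.0-fold. The lowest of complex I is Ndufa11, whose long model (2661 exon bases) lowers its value.

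The log2 fold change of members went with the GC content of their transcripts. Spearman's rho was -0.61 over the 85 members and -0.38 over 12148 genes with a GC value. By complex, rho was -0.63 in complex I, -0.76 in III, -0.50 in IV and -0.27 in V. The 4 genes of complex II gave 0.6. Genes share libraries, so this is a description with no p. Among 21 members with at least 55% GC, 19 were below 0, with a median of -0.27; all genes in that range had 76.5% below 0 and a median of -0.19. Among 34 members under 50% GC, 10 were below 0, with a median of 0.051, against 34.5% and 0.085 over all genes. These bounds were chosen after the values were seen. The difference between control libraries also went with GC content, at -0.46 over members and -0.50 over all genes. That between high-fat libraries did so at -0.36 and -0.31. Ndufa13, Ndufb7, Ndufa11 and Cox4i1 have 60.4%, 59.7%, 58.2% and 57.8% GC. With a trend on length and GC content removed from each library, rho was -0.14 over members. The log2 fold changes of Ndufa13, Ndufb7, Ndufa11 and Cox4i1 were then -0.45, -0.47, -0.63 and -0.22. Their edgeR unadjusted p were 0.00416, 0.0365, 0.0119 and 0.0186. In that fit 0 members were called by edgeR, against 1.2% of all genes. At an edgeR unadjusted p below 0.05 it had 15 members lower and 6 higher, where 12 and 2 stood as counted. The share of all genes at that p was not worked out for this fit. The part of GC content in the diet differences was not tested otherwise.

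**Figure D5:**
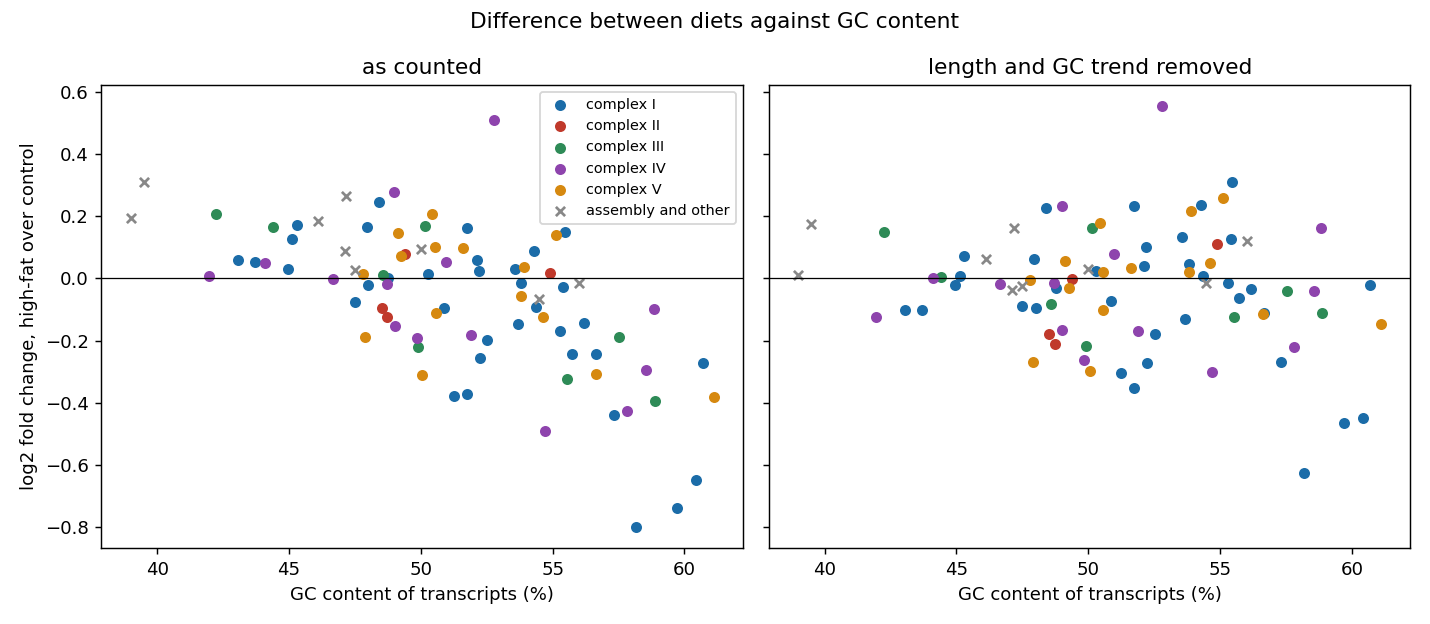
Log2 fold change (high-fat over control) against transcript GC content in percent, 1 point per kept member coloured by complex, as counted (left) and with a trend on length and GC content removed (right). As counted, members with at least 55% GC lie mostly below 0 (19 of 21); rho was -0.61 on the left and -0.14 on the right.

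The 7 Ndufaf factors help build complex I and stay out of the finished enzyme. Of these, 6 had a log2 fold change above 0, and 5 (71.4%) lay wholly higher with high-fat diet, against 26.1% of all genes. Their median GC content was 47.2%, and with the length and GC trend removed their log2 fold changes ran from -0.038 to 0.17. Ndufaf4, named for its p after the values were seen, had 36.1 and 43.2 against 46.4 and 51.9 CPM. Its log2 fold change was 0.31 ± 0.12 (unadjusted p = 0.0268, edgeR adjusted p = 0.240). Both without control library 1 and with the length and GC trend removed it was 0.17, the latter with an edgeR unadjusted p of 0.0551. The genes kept apart, Atp5s and Atp5sl, had 4.27 and 5.02 against 5.21 and 5.43 CPM, and 5.84 and 5.33 against 5.82 and 4.83 CPM; only Atp5s of this pair lay wholly higher, at a log2 fold change of 0.20 ± 0.18. Beyond the members, 7 lists of other subunits, assembly factors, electron carriers and transcription regulators held 70 genes, of which 67 were tested. None was called by edgeR, 5 were on the higher side and 2 on the lower side at an unadjusted p below 0.05, where all genes gave 8.56% and 8.46%, and their median log2 fold change was 0.13. The median was 0.15 for 8 other complex I assembly factors, 0.17 for 4 of complex II and 0.10 for 7 further genes of complex III, Cyc1 among them. For 19 complex IV assembly factors it was 0.13, and for 5 further genes of ATP synthase, Usmg5 among them, 0.14. It was 0.049 for 13 electron carriers and 0.073 for 11 regulators. The regulators lay on both sides: Gabpa was at 0.26 ± 0.097 (edgeR unadjusted p = 0.0268) and Pprc1, of the PGC-1 coactivator family, at -0.41 ± 0.17 (edgeR unadjusted p = 0.0396), both named after their values were seen. Cycs, which encodes cytochrome c, had 279 and 347 against 331 and 391 CPM, with overlapping libraries.

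The promoter windows of RefSeq (GRCm38.p6, 300 bases, 250 of them before the start) matched 76 of the 92 members, and both strands were searched. The NRF1 word GCATGCGC stood in 12 of 76 (15.8%), against 6.07% of 9726 kept genes with a window. The length of this word was set after the matches of a longer form had been seen. The word AAGATGGC of YY1, a zinc finger factor, stood in 11 (14.5%), against 5.46%. The word CCGGAAG, bound by GABP, a factor known for activating respiratory genes, stood in 17 (22.4%), against 20.7%. The 12 members with the NRF1 word had a median log2 fold change of -0.039 and the 60 other kept members with a window one of -0.014. They include both Ndufa11, shown above, on the lower side and Ndufaf4 on the higher side. Such a match is a description of the letters in the window only.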

How the data were processed

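Raw counts per gene, whole numbers without normalization, were deposited by the authors in 1 table per library, with gene models whose exon positions are mm9 coordinates. TopHat2 2.0.10, Cufflinks 2.1.1, HTSeq and mm9 are named, per the submitters' processing notes; the sources used here do not give the strand mode. Summary lines were left out: alignments at several places (37.5% to 48.5%), no gene model (13.5% to 15.0%) and several genes (0.664% to 0.823%). Low counts were filtered with edgeR 4.0.16 (filterByExpr, minimum count 10, minimum total 15), which left 12747 genes. Diet was tested by its quasi-likelihood test with TMM scaling, robust fitting and Benjamini-Hochberg adjustment over all kept genes, at a threshold of 0.05. DESeq2 1.42.0 and limma 3.58.1 (voom) were alternatives. CPM use TMM-adjusted totals. GC content came from GENCODE M21 transcripts matched by RefSeq accession. Fits were tested on simulated data. The chi-square per degree of freedom between replicates was 27.7 (control) and 28.9 (high-fat), so each library was counted once. The members and lists were chosen with earlier results of these data known. Members are named by p, by extreme fold change or level within a complex, as core complex I or complex II subunits, or as isoforms; those outside this rule are marked. A gene that the rule picks is not reported here by name or labelled in a plot; counts and medians include it.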

Additional observations from a re-analysis of the deposited data

How the results depend on the processing

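With 2 libraries per diet, 2 residual degrees of freedom limit every test. Genes called over the whole table numbered 78, and 366 with DESeq2, 28 with limma-voom, 522 without a filter on low counts, 46 with a CPM filter and 146 with the length and GC trend removed; leaving out 1 library gave 15 to 831 (831 without high-fat library 1, 500 without high-fat library 2, 15 and 18 without control libraries 1 and 2). Members called numbered 0, and 2 with DESeq2, 5 without the filter (Cox4i1, Ndufa11, Ndufa13, Ndufa3 and Ndufb7, all lower; 1.54% of all genes lower) and 0 to 5 with 1 library left out. The lone library of a diet was then assumed to vary like the other diet's. The replicate block called 113 genes and 0 members, with a smallest adjusted p of 0.0596 among members; same-numbered libraries deviated together only at a correlation of 0.0888, so the numbers were not taken as pairs.

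Medians with 1 library left out ran from -0.1889 to 0.1146 (complex I), -0.0656 to -0.0331 (II), -0.1040 to 0.0229 (III), -0.2176 to 0.0789 (IV), -0.0826 to 0.0777 (V) and -0.1396 to 0.0976 (all members). Without genes overlapping another model, medians were -0.1916 (III) and -0.0606 (V). With the trend removed, complex II had -0.0902. Among 44 named members and 608 values under alternatives, 570 kept direction and side of the threshold, 13 passed it and 25, in 12 members, changed sign. With RefSeq coding genes only, Atp5l was at -0.0025, Cox7b at -0.0092 and Sdhb at -0.0015. With the trend removed, the log2 fold change was -0.0045 for Atp5l, 0.1636 for Cox6a1, -0.1244 for Cox7b, -0.0002 for Ndufa4, 0.0468 for Ndufs3, -0.1015 for Ndufv2 and -0.0022 for Sdhd. Leaving out 1 library gave -0.1437 to 0.1769 for Atp5l, -0.3151 to 0.0900 for Cox6a1, -0.0531 to 0.1488 for Cox6b1, -0.1959 to 0.2294 for Cox7b, -0.1396 to 0.2519 for Ndufa4, -0.1628 to 0.2372 for Ndufa6, -0.1468 to 0.1119 for Ndufs3, -0.1359 to 0.2508 for Ndufv2, -0.0325 to 0.0524 for Sdhb, -0.0759 to 0.2314 for Sdhd, -0.0461 to 0.4984 for Uqcrb and -0.0527 to 0.3629 for Uqcrq. Apart from the fits with fewer samples or genes, the cause was not tested.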

Other observations

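Several members start back to back with another gene. With 5′ ends within 1000 bases and on opposite strands, 29 pairs were found, and both genes were kept in 25. Most point apart, but pairs whose 5′ parts run through each other were counted too, such as Atp5j with Gabpa. Ndufa2 and Atp5a1 were left out of this search. The log2 fold changes of diet had the same sign in 19 of the 25, and Spearman's rho between partners was 0.77; without the 3 pairs whose models overlap it was 0.79 over 22. These pairs share libraries and base composition: the GC content of partners correlated at 0.52 over 24 pairs, and with the length and GC trend removed the fold changes did at 0.33, with 15 of 24 of the same sign. No partner was called by edgeR (smallest adjusted p = 0.215). Examples, chosen after their values were seen, are Ndufa11 and Vmac, at -0.80 and -0.35, and Cox4i1 and Emc8, a subunit of the endoplasmic reticulum membrane complex, at -0.43 and -0.15. Atp5j lies beside Gabpa, which encodes the DNA-binding subunit of GABP, with overlapping models and log2 fold changes of 0.14 and 0.26.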
